A study of Mus musculus with 12 samples.

Results

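AMPA receptors carry most of the fast excitatory current at hippocampal synapses, and they were followed here at the level of their messenger RNA. The 9 genes considered were chosen by name: the pore-forming subunits Gria1, Gria2, Gria3 and Gria4, the transmembrane AMPA receptor regulatory proteins (TARPs) Cacng2, Cacng3 and Cacng8, and the cornichon proteins Cnih2 and Cnih3. Values were used for 7 of the 9, among 17986 genes listed in any table and 14360 listed in all 4. Gria2 and Cnih2 were not analysed here.

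The libraries came from the hippocampus of C57BL6/J mice, with no other allele named in the labels. A synapse fraction (SYN) gave 6 libraries, 1 of arm C and 1 of arm L on each of days 1, 6 and 20, and the whole homogenate (HOM) gave 3 libraries of each arm on day 6. The file headers name the C columns control and most L columns training or learned, while those of the day 1 and day 20 synapse pairs carry the letters C and T. The labels leave out how the synapse fraction was made, what was done to the animals and whether libraries stand for separate animals. The p-values therefore measure only how far these libraries spread, which may be technical. No homogenate was sampled on days 1 and 20. The synapse tables were deposited apart from the homogenates, and the day 6 columns of both fractions carry the word Input, so fraction cannot be told apart from table, nor day 6 from this naming within the synapse fraction.

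The receptor is a tetramer of GluA subunits encoded by the Gria genes, which bind glutamate and line the ion channel. TARPs and cornichons are auxiliary membrane proteins: they accompany the subunits out of the endoplasmic reticulum, slow the closing of the channel, and, in the case of TARPs, anchor the receptor to scaffolds of the postsynaptic density through a PDZ-binding tail. In the hippocampus, insertion of GluA1-containing receptors is a well known step of long-term potentiation, and Cacng8 encodes TARP gamma-8, the TARP most associated with this region.

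A pair of features of the coding sequence show how alike the members are and where they differ, and they bear on how far reads can be assigned to each. The sequences are from the GENCODE M21 annotation on GRCm38, the build called mm10. The first set is the re-entrant pore loop of the subunits, with the codon of the Q/R site in capitals. RNA editing of this site in the Gria2 transcript makes the channel impermeable to calcium, while the 3 genes shown encode glutamine there. Each window holds 57 coding bases and runs over the junction of exons 11 and 12, so its coordinates span an intron: chr11:57243067-57283513 on the plus strand for Gria1, chrX:41610238-41620800 on the plus strand for Gria3 and chr9:4462101-4464166 on the minus strand for Gria4.
Gria1: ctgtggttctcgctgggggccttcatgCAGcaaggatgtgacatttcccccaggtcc
Gria3: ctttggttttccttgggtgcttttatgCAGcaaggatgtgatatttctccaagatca
Gria4: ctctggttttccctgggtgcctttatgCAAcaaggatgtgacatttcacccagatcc

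Gria1 and Gria3 differed at 12 of these 57 bases, Gria1 and Gria4 at 8, and Gria3 and Gria4 at 8. The second set is the last 36 coding bases of the TARPs, stop codon included, with the 4 codons of the PDZ-binding tail in capitals. The windows lie at chr15:77995149-77995184 on the minus strand in exon 4 of 4 for Cacng2, chr7:122768811-122768846 on the plus strand in exon 4 of 4 for Cacng3, and chr7:3415570-3415605 on the plus strand in exon 6 of 6 for Cacng8.
Cacng2: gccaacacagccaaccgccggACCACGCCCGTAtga
Cacng3: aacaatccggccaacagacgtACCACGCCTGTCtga
Cacng8: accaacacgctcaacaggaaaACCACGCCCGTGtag

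Over the 36 bases Cacng2 and Cacng3 differed at 10, Cacng2 and Cacng8 at 12, and Cacng3 and Cacng8 at 13. The analysed members were also compared by the longest complete coding sequence of each gene. Between any 2 of them the longest identical stretch was 50 bases, shared by Gria3 and Gria4 in exon 14 of each. It lies at chrX:41654847-41654896 on the plus strand and chr9:4432801-4432850 on the minus strand. It is printed because reads inside it cannot be assigned to either gene by sequence.
Gria3 and Gria4: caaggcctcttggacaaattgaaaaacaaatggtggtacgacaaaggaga

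The next longest runs were 35 bases between Gria1 and Gria3 and between Gria1 and Gria4, and 23 bases between Cacng2 and Cacng3 and between Cacng2 and Cacng8. Cacng3 and Cacng8 shared 14 bases, and all other pairs of analysed members at most 12.

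Library totals ran from 9.1e+06 to 1.6e+07 counts, and the limit that a count of 0 allows, taken as 3 counts, lay at 0.188 to 0.330 CPM (counts scaled to a library total of 1e+06). All 7 analysed members lay far above this limit, with 440 counts or more in each synapse library. The factors of TMM scaling (trimmed mean of M values, a correction for library composition) were 0.660 and 0.718 in the day 6 synapse libraries, 0.971 to 1.001 in the other synapse libraries and 1.097 to 1.179 in the homogenates. The day 6 synapse libraries thus stand apart, and results that rest on them are given beside those of days 1 and 20. Relative to scaling by library totals, TMM moved the median log2 difference of all genes from -0.99 to -0.22 for the day 6 synapse libraries against the homogenates, from -0.24 to -0.04 for those of days 1 and 20, and from -0.59 to -0.08 for synapse day 6 against the other synapse days.

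Markers of other cell types moved with the fraction. The summed level of 10 astrocyte markers was 9.32e+03 to 1.09e+04 CPM in the homogenates, 1.67e+04 to 1.71e+04 CPM in the synapse libraries of days 1 and 20 and 2.09e+04 to 2.27e+04 CPM in those of day 6. Microglial markers summed to 241 to 307, 710 to 852 and 952 to 1.05e+03 CPM in the same order, with all 9 called higher in both fraction comparisons. Oligodendrocyte markers summed to 2.33e+03 to 3.82e+03, 1.05e+04 to 1.22e+04 and 3.48e+03 to 4.14e+03 CPM. Excitatory neuron markers, which check the labelled tissue, summed to 2.1e+03 to 2.35e+03, 2.65e+03 to 2.83e+03 and 4.18e+03 to 4.26e+03 CPM, and none of the 9 was at 0 in any library. Markers of CA1 neurons summed to 486 to 635, 820 to 916 and 1.1e+03 to 1.12e+03 CPM in that order, those of CA2 and CA3 neurons to 303 to 331, 274 to 301 and 213 to 216 CPM, and those of dentate granule neurons to 892 to 1.23e+03, 674 to 754 and 695 to 831 CPM. Choroid plexus markers summed to 1.48e+03 to 3.75e+03, 4.79e+03 to 6.06e+03 and 3.61e+03 to 4.21e+03 CPM, and endothelial and mural markers to 419 to 477, 377 to 540 and 107 to 139 CPM. The part of these shifts in the results that follow was not tested.

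Gria1 (chr11:57011387-57330244, plus strand), which encodes GluA1 and is the subunit studied most in synaptic plasticity, had the highest level per kilobase of the analysed members in all 12 libraries. In the homogenates it stood at 502, 581 and 442 CPM in C replicates 1 to 3 and at 560, 554 and 494 CPM in L replicates 1 to 3. In the synapse fraction it stood at 643 (C) and 586 (L) CPM on day 1, 1032 and 1088 CPM on day 6, and 616 and 634 CPM on day 20. The day 6 synapse pair was the highest, and the other 4 synapse libraries lay above all 6 homogenates by a small margin.

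Gria3 (chrX:41400854-41678601, plus strand) encodes GluA3, a subunit that often pairs with GluA2. It ranged from 198 to 231 CPM over the 6 homogenates, with a median of 208 CPM. In the synapse fraction it stood at 222 (C) and 226 (L) CPM on day 1, 488 and 476 CPM on day 6, and 227 and 224 CPM on day 20. The libraries of days 1 and 20 fell inside the range of the homogenates, and the day 6 pair lay well above both.

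Gria4 (chr9:4417896-4796234, minus strand) encodes GluA4, which in the adult hippocampus is best known from interneurons. It ranged from 53.7 to 78.2 CPM over the 6 homogenates with a median of 60.0 CPM. In the synapse fraction it stood at 66.9 (C) and 64.5 (L) CPM on day 1, 166 and 137 CPM on day 6, and 67.4 and 70.6 CPM on day 20. Its values on days 1 and 20 lay within the homogenate range, as did those of Gria3. Interneuron markers summed to 1.48e+03 to 1.94e+03 CPM in the homogenates, 2.07e+03 to 2.25e+03 CPM in the synapse libraries of days 1 and 20 and 3.37e+03 to 3.52e+03 CPM in those of day 6, and their part in the level of Gria4 was not tested.

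Cacng2 (chr15:77991748-78120028, minus strand) encodes stargazin, the founding TARP. Scaled to library totals its level varied little: 49.8 to 57.1 CPM over the homogenates, 60.7 (C) and 51.7 (L) CPM on synapse day 1, 54.1 and 62.8 CPM on day 6, and 56.6 and 58.8 CPM on day 20. The 3 sets of libraries overlapped.

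Cacng3 (chr7:122670492-122769393, plus strand) encodes TARP gamma-3. It ranged from 40.8 to 54.2 CPM over the homogenates. In the synapse fraction it stood at 58.6 (C) and 55.8 (L) CPM on day 1, 108 and 78.3 CPM on day 6, and 60.7 and 41.5 CPM on day 20. The L library of day 20 was the lowest of the synapse libraries and lay inside the homogenate range, while the C library of day 6 was the highest of all 12.

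Cacng8 (chr7:3390683-3415648, plus strand) was the member whose fractions were most cleanly apart on days 1 and 20. It stood at 70.7, 73.3 and 68.3 CPM in C replicates 1 to 3 of the homogenate and at 78.4, 78.0 and 76.3 CPM in L replicates 1 to 3. In the synapse fraction it stood at 137 (C) and 114 (L) CPM on day 1, 156 and 134 CPM on day 6, and 125 and 135 CPM on day 20. All 6 synapse libraries lay above all 6 homogenates, as they did for Gria1 and for 9.63% of the genes that averaged 1 CPM or more.

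Cnih3 (chr1:181352628-181460641, plus strand) encodes cornichon-3, which slows receptor deactivation. It stood at 34.3 to 45.6 CPM over the homogenates, 48.2 (C) and 41.3 (L) CPM on synapse day 1, 45.1 and 62.1 CPM on day 6, and 43.6 and 46.3 CPM on day 20. Its synapse and homogenate libraries overlapped.

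**Figure D1:**
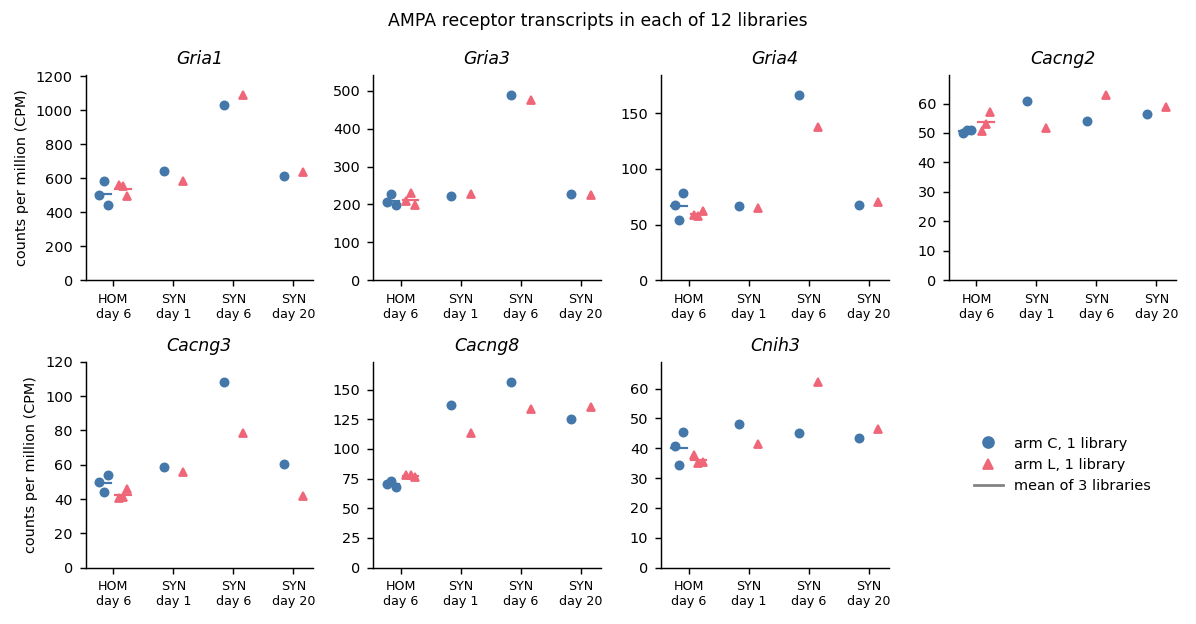
Level of each analysed member in CPM in the 12 libraries, 1 panel per gene with an axis from 0, with circles for arm C, triangles for arm L and lines for the mean of the 3 homogenates of an arm. Gria1, Gria3, Gria4 and Cacng3 were highest in the day 6 synapse pair, while all 6 synapse libraries of Cacng8 (114 to 156 CPM) lay above its homogenates (68.3 to 78.4 CPM).

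To compare genes with each other, levels were divided by the length of each gene's exons (2.35 kb for Cacng8 to 9.86 kb for Gria3). Per kilobase, Gria1 stood at 86.4 ± 8.62 CPM per kb (SD, n = 6) in the homogenates, Cacng8 at 31.6 ± 1.75, Gria3 at 21.5 ± 1.43, Cacng3 at 16.6 ± 1.89, Cnih3 at 13.9 ± 1.59, Gria4 at 9.98 ± 1.39 and Cacng2 at 9.46 ± 0.487 CPM per kb. In the synapse libraries of days 1 and 20 the same order held, from 103 ± 4.18 CPM per kb for Gria1 and 54.5 ± 4.52 for Cacng8 to 10.7 ± 0.398 for Gria4 and 10.3 ± 0.703 for Cacng2 (SD, n = 4). In the day 6 synapse pair the values were 175 ± 6.48 for Gria1, 61.8 ± 6.77 for Cacng8, 48.9 ± 0.858 for Gria3, 33.6 ± 7.55 for Cacng3, 24.1 ± 3.21 for Gria4, 19.5 ± 4.37 for Cnih3 and 10.6 ± 1.13 CPM per kb for Cacng2 (SD, n = 2). The ranges of Gria4 and Cacng2 overlapped in the homogenates and on synapse days 1 and 20, where this pair changed places between libraries. Those of Cacng3 and Cnih3 overlapped too, although each homogenate held 1.08 to 1.30 counts of Cacng3 for 1 of Cnih3, at near equal exon lengths, and the synapse libraries of days 1 and 20 held 0.896 to 1.39. Gria1, Cacng8 and Gria3 came in that order in 12 of 12 libraries, but with the longest coding transcript as the length Gria3 stood above Cacng8 in 6 of them, since the annotated exons of Gria3 include sequence outside that transcript. The annotation holds 43 bases after the stop codon of Cacng8 against 3401 for Cacng2, which limits a comparison per length between them.

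Of the summed level per kilobase of Gria1, Gria3 and Gria4, Gria1 made up 73.2% in the homogenates, 75.4% in the synapse libraries of days 1 and 20 and 70.6% in those of day 6. Of the 3 TARPs, Cacng8 made up 54.9% ± 3.01 (SD, n = 6) in the homogenates and 64.6% ± 3.27 (SD, n = 4) in the synapse libraries of days 1 and 20, and 58.4% on day 6. Cacng2 made up 16.4%, 12.3% and 10.2% in the same order, and Cacng3 28.7%, 23.2% and 31.5%. Cacng8 was thus the leading TARP transcript in each set of libraries, also with the longest coding transcript as the length (60.0%, 69.3% and 63.4%).

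The synapse fraction of days 1 and 20 was then compared with the day 6 homogenates. All 7 members were called higher in the synapse fraction (edgeR quasi-likelihood test, Benjamini-Hochberg adjusted p under 0.05 over all 13850 genes tested). Of all genes 58.6% were called and 28.5% were called higher (3949 higher and 4167 lower), and the members' median log2 difference was 0.43 beside -0.04 over all genes. Under scaling by library totals, an alternative chosen after seeing the data, 4 of the 7 were called higher where 20.5% of genes were (2836 higher and 5887 lower), and the 7 differences stayed above 0. In a bulk library a shift in the cells or compartments sampled and a shift in RNA per cell cannot be told apart. The comparison also crosses days.

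Cacng8 had the largest difference of the members, 0.98 on the log2 scale (SE 0.07), a ratio of 1.97 (adjusted p = 8.05e-09, edgeR). It was 0.78 (adjusted p = 5.47e-08, edgeR) under library totals. Gria1 followed at 0.44 (SE 0.08, adjusted p = 0.000132, edgeR), and at 0.25 (adjusted p = 0.00563) under library totals. Cacng3 and Cnih3 both stood at 0.43 (SE 0.08 each) and at 0.23 under library totals, where they stayed called. Cacng2 at 0.32, Gria4 at 0.29 (adjusted p = 0.00627, edgeR) and Gria3 at 0.28 were called with TMM but not under library totals, where they stood at 0.13, 0.10 and 0.09. Against synapse day 1 alone Gria4 stood at 0.26 and was no longer called (adjusted p = 0.0706, edgeR). By CPM, the 4 synapse libraries lay wholly above the 6 homogenates for 2 members, Gria1 and Cacng8, as they did for 16.5% of the genes that averaged 1 CPM or more.

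The day 6 synapse pair was compared with the homogenates of the same day in a fit that takes the lone synapse library of each arm to vary like the homogenates. All 7 members were called higher, where 67.3% of 14137 genes were called and 28.7% called higher (edgeR, 4059 higher and 5449 lower). Their median log2 difference was 1.77, beside -0.22 over all genes. Under library totals 6 of 7 were called higher, where 17.3% of genes were (2442 higher and 8709 lower), with a median of 1.00 beside -0.99. These differences share the homogenates with those of days 1 and 20, so the comparisons are not independent of each other.

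The subunits showed the largest values: Gria4 stood at 2.03 (SE 0.11, adjusted p = 1.77e-07, edgeR), Gria3 at 1.95 (SE 0.09) and Gria1 at 1.79 (SE 0.11), ratios of 4.09, 3.87 and 3.45. The TARPs Cacng3 at 1.77 and Cacng8 at 1.73 were close behind, and Cnih3 stood at 1.24 (SE 0.10). Cacng2 was lowest at 0.93 (SE 0.08, adjusted p = 6.45e-06, edgeR), and it was the member not called under library totals, at 0.16 (adjusted p = 0.0984, edgeR). By CPM, the day 6 synapse pair lay wholly above the homogenates for Gria1, Gria3, Gria4, Cacng3 and Cacng8, a pattern of 17.3% of genes, and not for Cacng2 and Cnih3. The order of the members thus differed from that on days 1 and 20: Gria4 and Gria3 had the smallest difference there and the largest here. Base composition is set beside both comparisons below, and its part in this order was not tested.

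**Figure D2:**
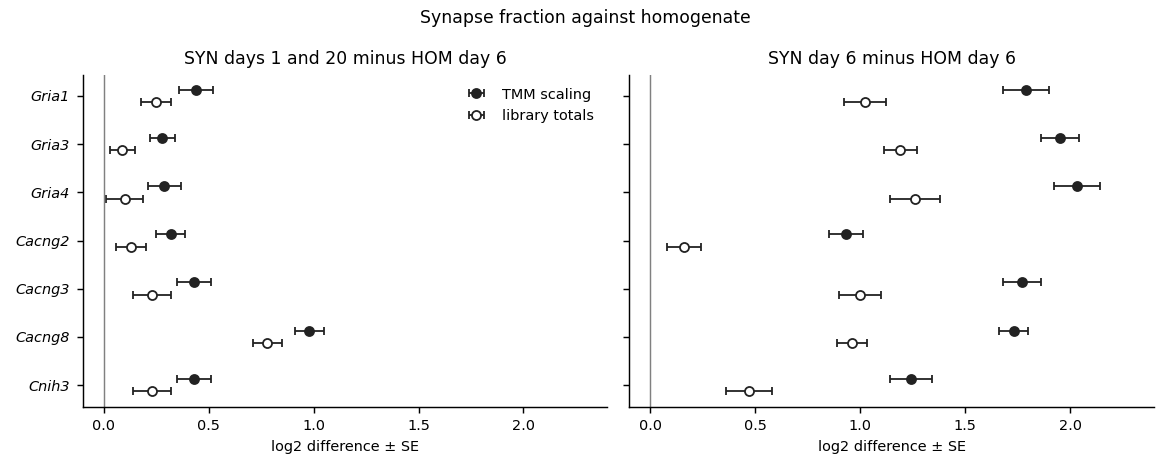
Log2 difference between the synapse fraction and the day 6 homogenates for each member, with the synapse libraries of days 1 and 20 on the left and the day 6 pair on the right, filled points for TMM scaling, open points for library totals and bars for the standard error. Values named here are those of TMM. Cacng8 stands out on days 1 and 20 at 0.98, whereas on day 6 the values run from 0.93 for Cacng2 to 2.03 for Gria4.

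Within the synapse fraction, day 6 was set against days 1 and 20 with the arms pooled. The 7 members were called higher on day 6, where 33.5% of 13363 genes were called and 18.2% called higher and 15.2% lower (edgeR, 2438 and 2032 genes). These shares moved with the day 6 pair: without its C library 57% of genes were called and 26.9% called higher, and without its L library 63.1% and 30%, with 7 of 7 members called higher in both cases. Under library totals 4 of 7 were called, Gria1, Gria3, Gria4 and Cacng3, where 10.9% of genes were called higher and 38.3% lower (1453 and 5112 genes). Gria4 stood at 1.68 (SE 0.12, adjusted p = 0.000101, edgeR) and at 1.17 under library totals, Gria3 at 1.61 and 1.10, Gria1 at 1.29 and 0.77, and Cacng3 at 1.29 and 0.78. Cacng8 at 0.69, Cnih3 at 0.75 and Cacng2 at 0.55 (SE 0.13, adjusted p = 0.0173, edgeR) came down to 0.18, 0.25 and 0.04. The call of Cacng2 also rested on single libraries: it stood at 0.45 (adjusted p = 0.0912, edgeR) without the L library of day 1 and at 0.50 (adjusted p = 0.0563, edgeR) without the C library of day 20. By CPM the day 6 pair lay wholly above the other 4 synapse libraries for Gria1, Gria3, Gria4 and Cacng3, as for 15.4% of genes. Ranks of the members among genes of like length and base composition are given below.

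Days 20 and 1 of the synapse fraction were compared with 1 library of each arm a day. With so few libraries, a lack of calls does not show that the days are alike. Of 13353 genes 0% were called by edgeR, 395 had an unadjusted p under 0.05, and DESeq2 called 1. The member with the lowest value was Cacng3, at -0.19 (SE 0.11, adjusted p = 0.997, edgeR), and the other 6 lay within 0.06 of 0.

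Ratios of members within a library do not depend on how libraries are scaled, and they were compared between the 4 synapse libraries of days 1 and 20 and the 6 homogenates by an exact two-sided permutation test over the 210 splits, an alternative chosen after seeing the data. The smallest p this design allows is 0.00476, and p-values were adjusted over the 21 pairs of members. All 6 pairs that hold Cacng8 passed, each in favour of Cacng8 in the synapse fraction and with no overlap of ratios. Of the 15 other pairs 1 passed. The 6 pairs share the counts of Cacng8, so they are not independent of each other and do not count as 6 separate results. Cacng8 was already known to have the largest difference of the members. How many other genes would pass against the same partners was not counted. Cacng8 gained 0.53 log2 units on Gria1, 0.69 on Gria3, 0.68 on Gria4, 0.66 on Cacng2 and 0.54 on Cnih3 (adjusted exact permutation p = 0.02 for these 5 pairs), and 0.55 on Cacng3 (adjusted exact permutation p = 0.0333). The other pair was Gria4 to Cnih3, with a difference of -0.13 (adjusted exact permutation p = 0.0429), while Gria1 gained 0.16 on Gria3 (adjusted exact permutation p = 0.05), which is not under the threshold.

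For 1 count of Gria1 the homogenates held 0.126 to 0.155 counts of Cacng8 and the synapse libraries of days 1 and 20 held 0.194 to 0.213. On day 6 the synapse pair held 0.123 to 0.151, within or just below the homogenate range. Against Cacng2 the picture was another: 1.33 to 1.55 counts of Cacng8 for 1 of Cacng2 in the homogenates, 2.20 to 2.30 on days 1 and 20, and 2.13 to 2.89 on day 6. Gria1 to Cacng2 ran from 8.65 to 11.4 in the homogenates, 10.6 to 11.3 on days 1 and 20 and 17.3 to 19.1 on day 6. The ratio of Cacng8 to Gria1 therefore lay above the homogenate range on days 1 and 20 but not on day 6, and that of Cacng8 to Cacng2 lay above it on all 3 days. The day 6 ratios were not tested.

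Base composition moved with this result. The Cacng8 transcript has 65.1% G and C, which puts it in the highest of 5 equal bins of genes ranked by this content, while the other analysed members have 43.0% to 54.6%. From the lowest to the highest bin the median log2 difference between the synapse libraries of days 1 and 20 and the homogenates was -0.46, -0.27, -0.09, 0.12 and 0.44. Among the 825 genes in the same bins of length and of G and C content as Cacng8 the median was 0.43 and the upper quartile 0.90, and Cacng8 at 0.98 stood at percentile 77.6, against 90.5 among all genes tested. Within their own bins Gria3 at 0.28 stood at percentile 87.6, Gria4 at 0.29 at 82.7 and Gria1 at 0.44 at 82.0. Cacng2 stood at 75.7 and Cacng3 and Cnih3 at 69.2 each. By this rank the subunits stood above Cacng8 and the other auxiliary members below it. On day 6 the bin medians against the homogenates were -0.24, -0.18, -0.20, -0.20 and -0.27. Percentiles within their own bins ran from 73.8 for Cacng2 to 92.3 for Gria4, with Gria3 at 90.1 and Cacng8 at 87.7. For synapse day 6 against days 1 and 20 the medians were 0.22, 0.08, -0.06, -0.26 and -0.60. Percentiles there ran from 71.6 for Cacng2 to 95.2 for Cacng3, with Gria4 at 93.1, Cacng8 at 90.5 and Gria3 at 87.1. The part of base composition in these differences was not tested.

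**Figure D3:**
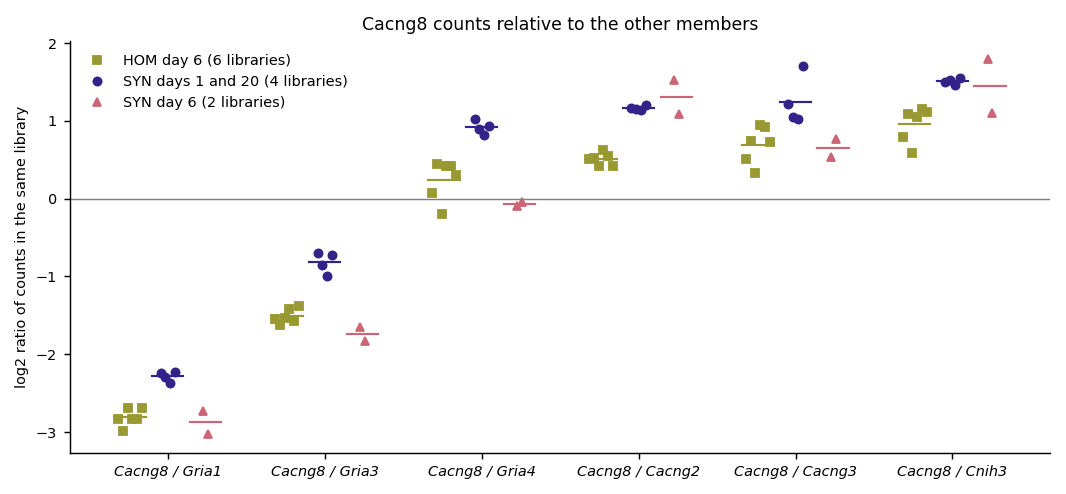
Log2 ratio of the counts of Cacng8 to those of each other member in the same library, with squares for homogenates, circles for synapse days 1 and 20, triangles for synapse day 6 and lines for the mean. The ratios of days 1 and 20 lie above those of the homogenates for each of the 6 partners, while on day 6 the ratio to Gria1 (0.123 to 0.151 before taking the log) is near that of the homogenates (0.126 to 0.155).

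The arms were compared first in the homogenates, with 3 libraries each. No member was called, and neither was any of the 13647 genes tested (0%, edgeR), of which 1217 had an unadjusted p under 0.05, with 11 called by DESeq2. Single libraries moved the count of 1217: it was 383 without C replicate 1, 761 without C replicate 3 and 1753 without L replicate 2. The largest member differences of L minus C were -0.20 for Cacng3 (SE 0.10, adjusted p = 0.588, edgeR), -0.15 for Gria4 (SE 0.12, adjusted p = 0.713, edgeR), -0.15 for Cnih3 (SE 0.11) and 0.14 for Cacng8 (SE 0.08, adjusted p = 0.641, edgeR). Gria1 stood at 0.08 (SE 0.12, adjusted p = 0.863, edgeR), Cacng2 at 0.09 and Gria3 at 0.02. Cacng8 averaged 70.8 ± 2.53 CPM in C and 77.5 ± 1.12 CPM in L (SD, n = 3 each), and it was the member whose 3 L libraries all lay above the 3 C libraries, which 7.69% of genes also did. Counting both directions, the arms lay wholly apart for 2152 of the 13647 genes and for 1 member. Gria1 averaged 508 ± 69.8 CPM in C and 536 ± 36.5 CPM in L, with overlapping libraries.

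In the synapse fraction, arm was tested across the 3 days with day as a block. Here 0% of 13363 genes were called by edgeR, and DESeq2 called 0, with 227 and 267 genes at an unadjusted p under 0.05. Leaving out 1 library gave 573 to 817 such genes with edgeR. Cacng3 had the largest member difference of L minus C, -0.42 (SE 0.13, unadjusted p = 0.0161, adjusted p = 0.91, edgeR), lower in L on 3 of 3 days. The share of all genes with the same direction on all days was not counted. Cacng8 stood at -0.18 and Gria4 at -0.15, and the remaining 4 members lay between -0.06 and 0.06. Of these, Cacng2 went from -0.04 to 0.01 under library totals, and Cnih3 from 0.06 to -0.09 with days 1 and 20 only.

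Each synapse day has 1 library per arm, so the day pairs have no test, and the 95% exact (Clopper-Pearson) intervals cover counting error alone, as molecules were not tagged before amplification. On day 1 the log2 ratio of L to C was below 0 for 7 of 7 members, with a median of -0.18 beside -0.01 over all genes with at least 10 CPM, of which 53.5% were below 0. Under library totals Gria3 went from -0.02 to 0.03. The interval lay wholly below 0 for Cacng8 (1821 counts in C and 1320 in L, -0.31), Cacng2 (809 and 600, -0.28), Cnih3 (642 and 479, -0.27) and Gria1 (8576 and 6803, -0.18), as for 20.5% of genes, and wholly above 0 for no member and 13.2% of genes. On that day 9 of 9 microglial markers and 9 of 9 endothelial markers were above 0, with medians of 0.23 and 0.57, and 16 of 16 mRNAs known to localize to dendrites were below 0, with a median of -0.20. The part of these shifts in the members' ratios was not tested.

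On day 6 the ratio was below 0 for 5 of 7 members, beside 52.1% of genes. The interval lay wholly below 0 for Cacng3 (1648 counts in C and 915 in L, -0.54), Gria4 (2534 and 1605, -0.35), Cacng8 (2381 and 1560, -0.31) and Gria3 (7450 and 5562, -0.12), as for 37.3% of genes. It lay wholly above 0 for Cnih3 (688 and 725, 0.38), as for 33% of genes. Gria1 stood at -0.01, and at 0.08 under library totals. The spread of all genes was wide that day, with 6.37% past 2-fold against 0.15% on day 1 and 0.0537% on day 20, and no member was past 2-fold on any day. On day 6, 10 of 10 astrocyte markers (median -0.22) and 9 of 10 oligodendrocyte markers (median -0.30) were below 0, beside a median of -0.02 over all genes, with medians of -0.51 for 5 endothelial and mural markers and 0.29 for 9 dentate granule markers. The part of these shifts in the day 6 ratios was likewise not tested.

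On day 20 the ratio was below 0 for 2 of 7 members and 48.9% of genes. Cacng3 again stood at -0.54 (692 counts in C and 440 in L), with an interval from -0.72 to -0.37 and at percentile 0.913 of all genes, where 14.5% had an interval wholly below 0. Cacng8 at 0.12 and Gria1 at 0.05 had an interval wholly above 0, as did 14.8% of genes. That day 7 of 7 CA1 markers (median -0.17) and 9 of 9 choroid plexus markers (median -0.28) were below 0. So were 8 of 9 meningeal and fibroblast markers (median -0.23), while 9 of 9 endothelial and mural markers (median 0.18) were above. Astrocyte and oligodendrocyte markers each had a median of -0.01. The part of these shifts in the day 20 ratios was not tested. Over the days Cacng3 was lower in the L library each time, but at -0.12 on day 1 its interval (-0.27 to 0.03) held 0. It stood at percentile 26.9 of all genes on day 1 and at 10.3 on day 6. Cacng8 was lower on days 1 and 6 and higher on day 20. The difference of L minus C between the fractions on day 6 was called for 18.2% of 14137 genes and for 0 of 7 members (edgeR), and for 9.85% of genes and 0 members without C replicate 1 of the homogenate. This fit takes its spread from the homogenates, since the synapse side is 1 library against 1. The largest member values were 0.49 for Cnih3 (SE 0.21, adjusted p = 0.135, edgeR) and -0.48 for Cacng8 (SE 0.16, adjusted p = 0.0617, edgeR).

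**Figure D4:**
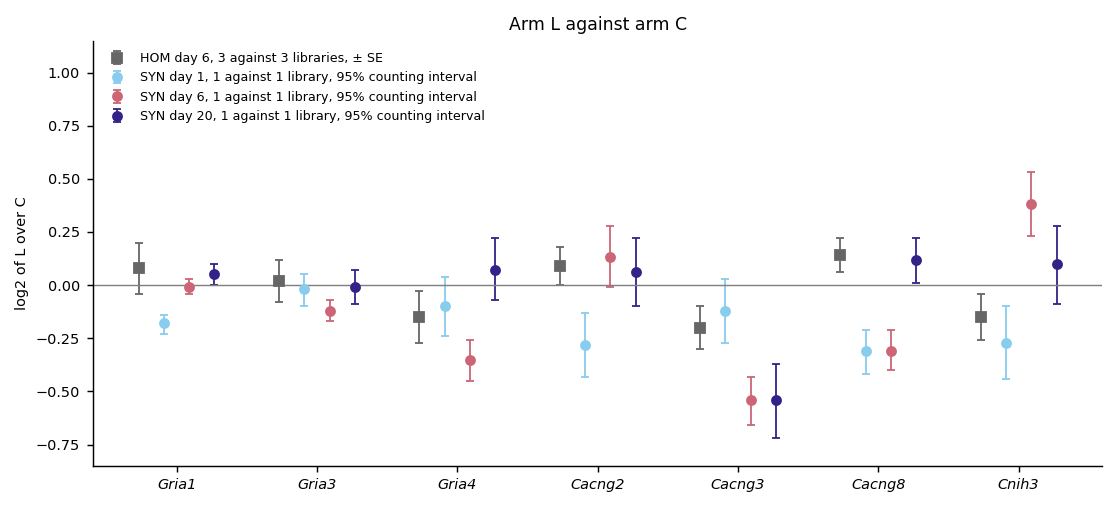
Log2 ratio of L to C for each member in the synapse pair of days 1, 6 and 20, with 95% counting intervals, and in the day 6 homogenates, with the standard error of the fit. Cacng3 is below 0 in each set, at -0.54 on synapse days 6 and 20, with an interval that holds 0 on day 1. The homogenate differences run from -0.20 to 0.14.

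Other genes of the receptor's life cycle were described from lists, as counts passing the edgeR test beside those under library totals. Over all genes tested, 28.5% were called higher and 30.1% lower in the synapse libraries of days 1 and 20 than in the homogenates (20.5% and 42.5% under library totals), and 28.7% and 38.5% on day 6 (17.3% and 61.6%). The lists were chosen with earlier results of these data known, and they were not tested against these shares. Of 20 other auxiliary and extracellular partners, 16 were higher and 2 lower in the synapse libraries of days 1 and 20 than in the homogenates (13 and 3 under library totals), and 17 were higher and 1 lower on day 6 (16 and 3). On days 1 and 20 they were led by Nptx2, a secreted pentraxin that clusters AMPA receptors (1.31, SE 0.10), Olfm2 (1.31, SE 0.11), the TARP Cacng7 (1.08, SE 0.08) and the pentraxin receptor Nptxr (0.85, SE 0.08), all called under library totals as well. On day 6 Nptxr stood at 2.81 (SE 0.09), and the LGI1 receptors Adam23 and Adam22 at 2.29 and 2.14, and these too stayed called under library totals, at 2.05, 1.52 and 1.37. The share of partners called higher was above that of all genes in both sets of days and under both scalings.

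Of 12 genes of receptor assembly and exit from the endoplasmic reticulum, 6 were higher and 5 lower on days 1 and 20 (6 and 6 under library totals), and 7 were higher and 3 lower on day 6 (7 and 5). The chaperone Canx stood at 0.98 on days 1 and 20 and 2.79 on day 6, and Cpt1c, a partner of GluA1 in the endoplasmic reticulum, stood at 1.12 on days 1 and 20. Sacm1l, a phosphoinositide phosphatase of the endoplasmic reticulum and Golgi, stood at -0.61 on days 1 and 20. Genes of this list were called in both directions, as genes were at large.

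Among scaffolds and adaptors, and among kinases and phosphatases, the share called lower was above that of all genes in both sets of days and under both scalings. Of 32 scaffolds and trafficking adaptors, 9 were higher and 16 lower on days 1 and 20 (5 and 21 under library totals), and 4 were higher and 19 lower on day 6 (2 and 27). Akap5, which anchors kinases and calcineurin near the receptor, stood at -0.87 (SE 0.07) on days 1 and 20, and Dlg3, which encodes the scaffold SAP102, at -0.61 (SE 0.06) then and -1.17 (SE 0.10) on day 6. Nsf, the ATPase that binds GluA2, stood at -1.09 (SE 0.10) on day 6. Of 24 kinases and phosphatases, 6 were higher and 13 lower on days 1 and 20 (5 and 15), and 5 were higher and 16 lower on day 6 (2 and 20). Ppp3ca, the catalytic subunit of calcineurin, stood at -0.74 (SE 0.08) on days 1 and 20.

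Other ionotropic glutamate receptors were nearest to the members in kind. Of 6 NMDA receptor subunits, 4 were higher and 1 lower on days 1 and 20 (4 and 2 under library totals), and 5 were higher and 0 lower on day 6 (4 and 1). Grin1, the obligatory subunit, stood at 1.07 (SE 0.06) on days 1 and 20 and 2.33 (SE 0.08) on day 6, whereas Grin2b was lower on days 1 and 20 (-0.44, SE 0.07) and higher on day 6 (1.63, SE 0.10). Of 9 kainate and delta receptor genes, 4 were higher and 2 lower on days 1 and 20 (3 and 3), and 9 were higher on day 6 (6). Grik5 stood at 0.84 on days 1 and 20 and Grik3 at 2.09 on day 6.

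Of 16 mRNAs known to localize to dendrites, 12 were higher and 1 lower on days 1 and 20 (9 and 3 under library totals), among them the postsynaptic scaffold genes Dlgap3 (1.53, SE 0.07) and Shank1 (1.41, SE 0.10) and the motor Kif5a (1.44, SE 0.06). On day 6 TMM called 9 higher and 4 lower, but library totals reversed this to 1 higher and 10 lower, so that the direction of this list on day 6 depends on the scaling, and 10 of 16 lower is near the share of all genes (61.6%). In each of these lists 0 genes were called between the arms of the homogenate. The smallest adjusted p there was 0.467 (edgeR), for Arc, an activity-induced mRNA of dendrites whose protein promotes removal of AMPA receptors (0.66), and for the chaperone Hspa5 (0.53) and the SNARE protein gene Snap47 (-0.25).

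The genes whose level followed each member most closely were found by Pearson's r of log2 CPM among the 7351 genes that averaged 20 CPM or more. These r describe 12 libraries that share fractions, depth and the contrast of the day 6 synapse pair, and each is followed by r over the 10 libraries without that pair. Gria1 was nearest to the secreted pentraxin gene Nptx1 (0.991 and 0.971) and the sodium channel gene Scn8a (0.986 and 0.945). Gria3 was nearest to the calcium channel subunit gene Cacna2d1 (0.996 and 0.873) and Gria4 to Arl6ip5 (0.991 and 0.889). Cacng8 was nearest to Paqr8 (0.983 and 0.979), the guidance gene Slit1 (0.983 and 0.988) and the protocadherin gene Pcdh1 (0.983 and 0.979), which stayed as close without the day 6 pair. Cacng3 was nearest to Ckap4 (0.95 and 0.799) and Cnih3 to B3galtl (0.920 and 0.837), and Cacng2 had the weakest nearest gene, Gdf11 (0.819 and 0.791). Between members, Gria1 and Gria3 had an r of 0.957 over 12 libraries and 0.816 over 10. In the same order, Gria1 and Cacng8 had 0.778 and 0.828, and Gria4 and Cnih3 0.701 and 0.843. Gria1 and Gria4 went from 0.838 to -0.26, so the sign of their r depended on the day 6 pair.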

How the data were processed

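Per the labels' protocols, total RNA was extracted with Trizol, depleted of ribosomal RNA and made into directional (dUTP) libraries from random hexamers. The submitters' processing notes name the build mm10 and the tools edgeR, HTSeq 0.9.1, HISAT2 2.0.4 and cutadapt 1.9.3. Strand setting and annotation release of the counting were not given in the sources used, so reads of overlapping antisense genes cannot be told apart. The authors deposited 4 tables of unnormalized read counts for each gene.

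Libraries were grouped by their titles. Counts were tested with edgeR 4.0.16 (filterByExpr, TMM, quasi-likelihood test) in R 4.3.3, with Benjamini-Hochberg adjustment over all genes tested and a threshold of 0.05. Levels are counts scaled to a library total of 1e+06 (CPM). Log2 ratios of day pairs used a prior count of 2 and genes averaging 10 CPM or more. DESeq2 1.42.0, other scalings, filters and left-out libraries were alternatives. The fits were tested on simulated data.

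The members and the lists were chosen with earlier results of these data known. Within each list the text could name up to 4 genes with at least 10 CPM and the smallest p in each comparison. For each member the 3 nearest genes were taken, of which 1 to 3 are named. Some genes that these rules chose are not reported here.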

Additional observations from a re-analysis of the deposited data

Results flagged for a closer look

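The contrast of arms for Cacng8 pointed opposite ways in the fractions of day 6. Every L homogenate (76.3 to 78.4 CPM) lay above every C homogenate (68.3 to 73.3 CPM), as for 7.69% of genes. The arms lay wholly apart in either direction for 2152 of 13647 genes. In the synapse pair, by contrast, the L library stood at 134 CPM and the C library at 156 CPM. The difference of L minus C between synapse fraction and homogenate was -0.48 on the log2 scale (SE 0.16, unadjusted p = 0.0126, adjusted p = 0.0617, edgeR), which does not pass the threshold of 0.05. The synapse side holds 1 library per arm, so this SE and p take their spread from the homogenates alone. The counts of the day 6 synapse pair differed by a chi-square of 26.1 per degree of freedom. It was 5.81 and 4.67 for the synapse pairs of days 1 and 20, and 3.65 to 21 between homogenates of the same arm. Without C replicate 2 of the homogenate this difference was -0.53 for Cacng8. On synapse day 20, L stood at 135 CPM and C at 125 CPM.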

How the results depend on the processing

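Between the arms of the homogenate, where edgeR called 0 genes, DESeq2 called 11, the replicate block 2 with 0 members among them, and leaving out 1 library gave 0 to 3. The homogenate columns of the arms share a code by replicate number, whose meaning the labels leave out. Deviations of same-numbered libraries correlated at 0.03, 0.20 and 0.26 and those of others at -0.24 to 0.16, and C replicate 1 correlated best with L replicate 3, so the numbers were not taken as pairing them. Between the arms of the synapse fraction, 1 gene was called with days 1 and 20 only, and leaving out 1 library gave 1 to 3. With library totals, 4 members were called in synapse days 1 and 20 against the homogenates and 4 in synapse day 6 against the other days, where leaving out 1 library gave 3722 to 8627 genes and 6 to 7 members. DESeq2 called 1 gene between synapse days 20 and 1. For the difference of arms between fractions, leaving out 1 homogenate gave 1390 to 2704 genes and 0 to 1 members, the 1 being Cacng8 without C replicate 2. The order Gria1, Cacng8, Gria3 held in 6 libraries with the longest coding transcript.

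Signs that turned belonged to values near 0. In the homogenate, leaving out 1 library gave -0.02 (without C replicate 3) to 0.21 for Gria1, and -0.05 (without L replicate 2) to 0.10 for Gria3, which stood at -0.03 without C replicate 3. Between synapse arms, Cacng2 (-0.04) went to 0.01 with library totals and ran from -0.11 to 0.08 (without either day 1 library) with 1 library left out, and Cnih3 (0.06) ran from -0.09 (without either day 6 library, or both) to 0.22. For the difference between fractions, Cacng2 (0.01) went to -0.01 with DESeq2 and with RLE size factors, and ran from -0.04 (without L replicate 1) to 0.04 with 1 homogenate left out, with -0.02 without C replicate 2. The causes were not tested. Leaving out a library was not possible for synapse day 20 against day 1 or for a synapse library in the difference between fractions, since no residual degrees of freedom or no contrast remains. At the depth of these libraries the lowest member count in a synapse library was 440, and the counting intervals of the day pairs carry that limit.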
